A study of Homo sapiens with 16 samples.

Results

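HepG2 cells carrying the PNPLA3 I148M variant on both alleles (G/G) were compared with HepG2 cells carrying it on neither (C/C), without palmitic acid. The comparison uses 5 of the 16 libraries of the series, which are clones GG1, GG2 and GG6 for G/G and clones CC1 and CC3 for C/C. They were taken as every untreated library of either genotype. HepG2 is a human liver tumour cell line that keeps many hepatocyte functions, and the title of the series gives prime editing, a method that writes a chosen base change without cutting both DNA strands, as the way the genotypes were made. The labels give only the clone numbers, so each number is taken here as 1 clone, and p-values measure the spread between these lines. The 5 lines share the HepG2 background, and neither the genotype of the parental line nor a vehicle for the untreated cells is given in the sources used here. Clones GC2, GC3 and GC4, with 1 edited allele, entered the model only through their spread, and the same 8 clones were also sequenced after 250 µM palmitic acid for 48 h.

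PNPLA3 encodes a protein of the patatin-like phospholipase family that sits on lipid droplets, the organelles in which hepatocytes store triglyceride. The G allele replaces isoleucine with methionine. In people it is a common inherited contributor to fatty liver disease, and the variant protein is known to build up on droplets and to be linked with slower triglyceride breakdown. A coding change of this kind need not alter the level of any transcript, and the comparison below concerns transcript levels only.

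RNA was depleted of ribosomal RNA before library preparation. The 5 libraries held between 12051029 and 15777669 reads assigned to genes, and the 16 libraries held between 9314342 and 15777669 with between 15662 and 16206 genes detected in each. Levels are given in units, which are CPM (reads per 1e6 reads) after scaling between libraries. HepG2 markers were present in all 5 clones. AFP, the fetal form of serum albumin, was at 13306, 17486 and 5438 units in GG1, GG2 and GG6, against 16798 and 6843 units in CC1 and CC3. HNF4A, the central hepatocyte transcription factor, was at 476, 354 and 451 units in the GG clones, against 508 and 412 units in the CC clones. Markers of other liver cell types overlapped between the genotypes in their summed levels. The 5 of 8 biliary markers with values summed to between 316 and 420 units in GG clones, against 337 and 382 units in CC clones, with SPP1 and SCTR under 1 unit in every clone. The 9 of 12 stellate and fibroblast markers with values summed to between 70.9 and 129.5 units in GG clones, against 84.0 and 67.3 units in CC clones. Of these, COL1A1, PDGFRA, DES and THY1 were under 1 unit in every clone. The 5 of 8 endothelial markers with values summed to between 16.1 and 50.3 units in GG clones, against 18.4 and 18.7 units in CC clones, with CDH5 and STAB2 under 1 unit in every clone. The 4 of 9 macrophage markers with values summed to between 509 and 543 units in GG clones, against 427 and 914 units in CC clones, nearly all of it LYZ, and CSF1R was under 1 unit in every clone.

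No gene passed the test between GG and CC clones. Of 13046 genes averaging 1 unit or more over the 5 libraries, 0 (0%) had an adjusted p under 0.05 by limma on log2(value + 0.5) with Benjamini-Hochberg adjustment. At an unadjusted p under 0.05 limma gave 152 genes (1.17% of those tested), of which 45 (0.345%) had the higher mean in GG clones and 107 (0.82%) the lower mean in GG clones. On the reads recovered from the units, edgeR's quasi-likelihood test also called 0 genes (0%), with 164 at an unadjusted p under 0.05. DESeq2 called 1 gene (0.00767%), the histone gene HIST1H2BI, with 189 at an unadjusted p under 0.05. In 550 genes (4.22%) every GG clone lay above both CC clones, and in 674 genes (5.17%) every GG clone lay below both. Mean differences were small for most genes. A log2 difference above 1 was seen in 81 genes (0.621%) and one below -1 in 113 genes (0.866%). The median 95% interval, taken 1 gene at a time without adjustment, reached 0.59 log2 units to either side of the difference. For a typical gene a change smaller than that could not be told from none with these clones. The adjusted test over 13046 genes asks for larger differences, so 0 calls do not show that changes above 0.59 were absent.

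Clones of 1 genotype differed from each other as much as clones of different genotypes. The root mean square log2 difference over the tested genes was 0.44 between GG1 and CC1 and 0.52 between GG6 and CC3. It was 0.63 between GG1 and GG6, 0.70 between GG1 and GG2, and 0.84 between GG2 and GG6, against 0.64 between CC1 and CC3. GG1 and CC1 were thus closer than any pair of the same homozygous genotype, and GG2 was at least 0.70 from every other GG or CC clone. Of the total sum of squares over the 5 libraries, 14.3% lay between the genotypes with 1 degree of freedom. The 3 GG clones accounted for 62.0% with 2 degrees of freedom and the 2 CC clones for 23.7% with 1 degree of freedom. Leaving out GG1, GG6 or CC3 gave 24.004%, 25.8% or 23.5% between the genotypes, where the 4 remaining libraries leave 3 degrees of freedom in all. In 9172 genes (70.3%) CC1 and CC3 differed by more than the means of the 2 genotypes did, and in 1083 genes (8.3%) they differed by over 1 log2 unit.

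The genes below are the 10 with the smallest unadjusted p in each direction among genes whose GG and CC clones did not overlap. The higher genotype had to average 5 units or more, and all of these genes missed the test. Genes with placeholder, clone-derived, antisense, open-reading-frame or small RNA names were left out. That removed TGIF2-C20orf24, with an unadjusted limma p of 0.0047. Non-overlap was part of how they were chosen, so it is a description of them.

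The 10 genes with higher GG values have varied functions. HAGLR, a long noncoding RNA of the HOXD gene cluster that is annotated as antisense (hg38 chr2:176164051-176188958, minus strand), was at 44.0, 55.2 and 66.7 units in GG1, GG2 and GG6, against 31.5 and 19.2 units in CC1 and CC3. Its log2 difference was 1.13 ± 0.27 (SE) with an unadjusted limma p of 0.0023. LIN28B, an RNA-binding protein of fetal liver and tumours that blocks maturation of let-7 microRNAs (chr6:104936616-105083332), was at 210, 114 and 179 units in GG clones, against 91.0 and 78.1 units in CC clones. Its log2 difference was 0.94 ± 0.30. The GC clones, at 74.1, 106 and 61.8 units, reached as low as the CC clones for LIN28B, whereas for HAGLR all 3 GC clones, at 47.2, 36.0 and 47.2 units, lay above both CC clones. NR2F1, an orphan nuclear receptor, was at 47.3, 63.7 and 52.2 units in GG clones, against 38.5 and 31.4 units in CC clones.

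Of these 10 genes, the largest log2 difference was that of FSTL5, a secreted protein related to follistatin (chr4:161383897-162164035, minus strand). It was at 4.08, 32.5 and 3.55 units in GG1, GG2 and GG6, against 0.063 and 0 units in CC1 and CC3. That is 518 reads over the GG libraries, against 1 read over the CC libraries. Clone GG2 gave 410 of the 518 reads. The GC clones had 2.28, 21.3 and 8.77 units. FSTL5 passed the filter of 1 unit only through the GG clones, where it is high, and was chosen by these same values. Its near absence from the 2 CC clones is therefore a description. After palmitic acid the same clones had 4.39, 33.6 and 3.29 units for GG, against 0.070 and 0.11 units for CC. The limma log2 difference without palmitic acid was 4.00 ± 1.02, and GG2 stood 3.03 log2 units above GG6. TGIF2-C20orf24, a read-through transcript whose reads could belong to either of its parent genes, was at 5.26, 18.2 and 4.20 units in GG clones, against 0 units in both CC clones. The difference had the other sign after palmitic acid, at -1.66 log2 units. TGIF2-C20orf24 likewise passed the filter of 1 unit only through the GG clones and was chosen by these values. No gene met the same on and off rule in the other direction.

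PLOD2, a lysyl hydroxylase that prepares collagen for cross-linking (chr3:146069440-146163653), was at 208, 317 and 191 units in GG clones, against 158 and 98.1 units in CC clones. EIF2A, a translation initiation factor, was even within each genotype, at 154, 157 and 145 units in GG clones, against 111 and 111 units in CC clones. Its log2 difference was 0.45 ± 0.14. The GC clones were at 137, 157 and 156 units, so GC2 was below the GG range and the other GC clones were near its upper end. MBNL3, a regulator of splicing, was at 284, 468 and 327 units in GG clones, against 198 and 195 units in CC clones. ARRB1, the arrestin beta-arrestin 1 that desensitises G-protein-coupled receptors, was at 120, 116 and 107 units in GG clones, against 74.5 and 80.3 units in CC clones. FAM13A had 12.2, 16.6 and 14.8 units in GG clones, against 10.1 and 6.38 units in CC clones, and BTBD16 had 6.09, 6.02 and 4.85 units in GG clones, against 2.78 and 2.79 units in CC clones.

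Among genes with lower GG values, HIST1H2BI had the smallest p of all genes tested. This gene for histone H2B (chr6:26272976-26273356) was at 5.26, 3.25 and 3.84 units in GG1, GG2 and GG6, against 12.7 and 11.2 units in CC1 and CC3. The groups were far apart for their spread, and the 3 GC clones, at 9.96, 11.6 and 9.58 units, lay near the CC clones. Its log2 difference was -1.46 ± 0.25 with a 95% interval of -2.02 to -0.89 and an unadjusted limma p of 2.86e-04. The limma adjusted p rounds to 1, while DESeq2 gave an adjusted p of 0.0234 with a log2 difference of -1.52.

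CDO1, the cysteine dioxygenase that opens the route from cysteine to taurine (chr5:115804733-115816954, minus strand), was at 4.22, 1.74 and 4.34 units in GG clones, against 21.5 and 8.78 units in CC clones. Its log2 difference was -1.94 ± 0.45 with an unadjusted limma p of 0.0022. The GC clones, at 4.14, 3.15 and 3.22 units, were within the GG range. Genes of DNA repair and cell division were also in this set. BRCA2, which loads the recombinase at broken DNA (chr13:32315474-32400266), was at 45.5, 56.6 and 38.7 units in GG clones, against 75.1 and 70.9 units in CC clones. TUBG1, the gamma-tubulin that nucleates microtubules, was at 102, 97.98 and 90.2 units in GG clones, against 143 and 131 units in CC clones. DDIAS, named as a suppressor of apoptosis after DNA damage, was at 10.1, 12.4 and 8.76 units in GG clones, against 16.3 and 17.6 units in CC clones.

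NDUFAF3, an assembly factor of respiratory complex I, was at 20.6, 21.1 and 15.1 units in GG clones, against 27.3 and 35.8 units in CC clones. GPCPD1, which splits glycerophosphocholine, was at 14.3, 12.6 and 10.7 units in GG clones, against 17.6 and 26.8 units in CC clones. The calpain protease gene CAPN5 had 2.56, 1.27 and 2.82 units in GG clones, against 5.12 and 6.70 units in CC clones. EHBP1L1 had 8.65, 4.75 and 5.64 units in GG clones, against 10.9 and 12.0 units in CC clones. HIST1H2BD, a further H2B gene, had 112, 78.3 and 59.1 units in GG clones, against 214 and 135 units in CC clones. For HIST1H2BD the nearest clones of different genotype, GG1 and CC3, were closer to each other than the CC clones were.

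All 20 genes had the same sign of difference in the palmitic acid libraries of the same clones. In 11 of them the genotypes did not overlap there either, where 11.6% of all tested genes did not overlap. Of the genes with higher GG values all but ARRB1 stayed apart, but of those with lower GG values only CDO1 and CAPN5 did. HIST1H2BI overlapped, at 3.14, 3.71 and 1.00 units in GG1, GG2 and GG6 after palmitic acid, against 8.30 and 3.15 units in CC1 and CC3. These libraries are of the same clones grown under another condition, so they show how steady each clone was and add no further clone. Whether the difference between genotypes differed between conditions was tested as an interaction. Of 13046 genes, 0 (0%) passed that limma test, with 755 (5.79%) at an unadjusted p under 0.05, and the lowest adjusted p among the 20 genes was 0.825. Under palmitic acid the GG and CC clones again differed in 0 genes (0%) at an adjusted limma p under 0.05, with 163 (1.25%) at an unadjusted p under 0.05.

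The edited gene itself did not separate the genotypes. PNPLA3 (chr22:43923739-43964488) was at 6.64, 4.67 and 3.47 units in GG1, GG2 and GG6, against 13.3 and 1.99 units in CC1 and CC3. The 2 CC clones enclosed all 3 GG clones. The log2 difference was -0.15 ± 0.63 with a 95% interval of -1.59 to 1.29, so neither a 2-fold lower nor a 2-fold higher level in GG clones was outside it. Leaving out CC1 gave 1.08, leaving out CC3 gave -1.39 and leaving out GG6 gave 0.05, so the sign depended on which clones were kept. A gene-level table cannot show the edited base, and no library was checked here for its genotype.

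Of 8 members of the PNPLA family, 7 were tested, 0 passed, and in 0 did the genotypes not overlap, against 9.38% of all tested genes. PNPLA2, the main triglyceride lipase of lipid droplets, was at 64.2, 63.8 and 84.4 units in GG clones, against 51.1 and 80.3 units in CC clones, a log2 difference of 0.13 ± 0.24. PNPLA8, a mitochondrial and peroxisomal phospholipase, was at 24.5, 27.2 and 37.9 units in GG clones, against 21.8 and 29.5 units in CC clones. PNPLA4 was at 11.1, 11.7 and 10.5 units in GG clones, against 12.4 and 11.0 units in CC clones, with a 95% interval of -0.50 to 0.35 for its log2 difference. PNPLA6, a phospholipase best known from neurons, was at 51.5, 73.0 and 27.8 units in GG clones, against 43.1 and 28.96 units in CC clones. PNPLA7 and PNPLA1 were at 1.11 to 3.01 units and 0 to 1.94 units in GG clones, against 1.91 to 2.15 units and 1.36 to 1.45 units in CC clones.

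A list of 20 other genes of chromosome 22, where PNPLA3 lies, was written by hand, and 8 of them were tested. Of these 8, 0 passed and none was without overlap, against 9.38% of all tested genes. A list of 8 is too short to tell 0 from that share. Over the 310 tested genes of chromosome 22, every GG clone lay above both CC clones in 7, against 4.22% of all tested genes. Every GG clone lay below both in 11 of the 310, against 5.17% of all tested genes. In the list, 0 calls and 0 genes apart thus say little about the chromosome. TTLL1, a tubulin polyglutamylase subunit, had the smallest p of the list, at 2.84, 1.82 and 1.66 units in GG clones, against 2.66 and 4.55 units in CC clones.

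Genes of lipid handling, the setting in which PNPLA3 acts, gave 0 calls in every list. Their median differences lay close to the median of all tested genes, which was -0.01 on the log2 scale. For lipid droplet coat and lipolysis genes the median over 17 tested members was 0.01, with 10 higher and 7 lower in the GG mean. PLIN2, the most widespread coat protein of lipid droplets, was at 182, 229 and 361 units in GG clones, against 132 and 206 units in CC clones. The groups overlapped at CC3, and the log2 difference of 0.58 had a 95% interval of -0.10 to 1.26. PLIN5, a coat protein of oxidative tissues, was at 2.35, 0.87 and 0.80 units in GG clones, against 1.96 and 2.47 units in CC clones. For triglyceride synthesis the median over 14 members was -0.10. DGAT1, which makes triglyceride from diacylglycerol, was at 130, 72.4 and 104 units in GG clones, against 179 and 101 units in CC clones. TM6SF2, another gene of inherited fatty liver risk, was at 1.18, 1.19 and 1.23 units in GG clones, against 1.71 and 2.15 units in CC clones.

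The 20 genes of fatty acid synthesis and desaturation had a median of -0.03 and the 26 genes of fatty acid oxidation a median of 0.04. ACSL3, which activates fatty acids for droplet growth, was at 148, 203 and 207 units in GG clones, against 153 and 138 units in CC clones. ETFB, which carries electrons from beta-oxidation, was at 144, 186 and 158 units in GG clones, against 128 and 131 units in CC clones, a log2 difference of 0.32 ± 0.16. The 27 cholesterol genes had a median of 0.09, with 19 higher and 8 lower in the GG mean. That list split the CC clones, with medians of 0.62 in CC1 and -0.63 in CC3 relative to the mean of the 5 clones, and the GG clones lay between them at 0.19, 0.35 and -0.32. Its median difference was 0.70 without CC1 and -0.59 without CC3. For the 17 apolipoprotein and lipoprotein assembly genes the median was -0.06. PLTP, which transfers phospholipids between lipoproteins, was at 99.7, 47.5 and 50.3 units in GG clones, against 87.2 and 148 units in CC clones. The 15 bile acid genes had a median of -0.01, and among 21 genes at other fatty liver loci the median was -0.06, and in 2 every GG clone lay below both CC clones, against 5.17% of all tested genes.

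Lists of liver function likewise held no called gene. The median was 0.06 over 20 hepatocyte plasma protein genes, -0.03 over 19 coagulation genes, 0.20 over 17 complement genes (between -0.13 and 0.45 on leaving out a clone) and 0.05 over 23 liver transcription factors. AGT, the angiotensin precursor, was at 1523, 1820 and 1820 units in GG clones, against 1481 and 1307 units in CC clones. CP, the copper carrier ceruloplasmin, was at 0.42, 14.9 and 1.52 units in GG clones, against 0.19 and 0.16 units in CC clones. Among 21 cytochrome P450 and phase II genes the median was -0.11. CYP1A1, a target of the aryl hydrocarbon receptor, was at 11.0, 8.55 and 24.4 units in GG clones, against 4.62 and 8.78 units in CC clones. The 20 genes of amino acid catabolism and the urea cycle had a median of -0.17, with 14 lower in the GG mean, against 51.6% of all tested genes, and 2 at an unadjusted limma p under 0.05, against 1.17%. Leaving out GG6 gave a median of 0.03 and leaving out CC1 gave 0.11. Those were FAH, the last enzyme of tyrosine breakdown, and ASL, a urea cycle lyase. FAH was at 30.0, 41.7 and 31.9 units in GG clones, against 46.9 and 50.3 units in CC clones. ASL was at 40.6, 40.6 and 25.5 units in GG clones, against 49.5 and 49.4 units in CC clones.

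The 25 genes of glucose metabolism had a list median of 0.08. PFKL, the liver phosphofructokinase of glycolysis, was at 111, 91.3 and 70.8 units in GG clones, against 144 and 118 units in CC clones. Of 30 nuclear-encoded respiratory chain genes, 25 had the higher mean in GG clones, against 48.4% of all tested genes, with a median difference of 0.08. In 3 every GG clone lay above both CC clones, against 4.22% of all tested genes. In these, clone CC3 stood lowest, with a median of -0.18 from the mean of the clones, while the other 4 clones were between 0.03 and 0.09. Leaving out CC3 gave a median difference of -0.0089 and leaving out CC1 gave 0.22. UQCRB, a subunit of complex III, was at 39.6, 41.1 and 38.2 units in GG clones, against 36.0 and 23.2 units in CC clones.

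Stress and inflammatory lists separated clones and not genotypes. The 24 genes of the ATF4 and CHOP stress response had medians of -0.26, -0.61 and 1.04 in GG1, GG2 and GG6, against -0.44 and 0.54 in CC1 and CC3, and a median difference of -0.08 that lay between -0.57 and 0.43 on leaving out a clone. ATF4 itself, the transcription factor of that response, was at 528, 579 and 589 units in GG clones, against 491 and 483 units in CC clones. The 14 NF-kB and inflammatory genes had medians of -0.27, 0.01 and 0.33 in the GG clones, against -0.80 and 0.60 in the CC clones, and a median difference of 0.15 that lay between -0.62 and 0.86 on leaving out a clone. For the other lists the median differences were -0.01 for 23 ER chaperone genes, 0.12 for 23 p53 targets, 0.07 for 22 NRF2 targets, -0.05 for 23 interferon-stimulated genes, -0.12 for 12 antigen presentation genes and 0.10 for 24 matrix genes. AKR1C3, an aldo-keto reductase and NRF2 target, was at 70.2, 48.8 and 0.65 units in GG clones, against 0.32 and 0.64 units in CC clones. Reads of AKR1C3 may be shared with its close relatives, and GG6 was level with the CC clones.

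Cell cycle genes had lower GG means almost throughout. None of the 36 passed the test, but 35 had the lower mean in GG clones, against 51.6% of all tested genes, and their median log2 difference was -0.46. In 2 of the 36 every GG clone lay below both CC clones, against 5.17% of all tested genes. At an unadjusted limma p under 0.05 there were 0, against 1.17% of all tested genes. MCM7, a subunit of the replicative helicase, was at 133, 156 and 137 units in GG clones, against 205 and 171 units in CC clones. MCM5, of the same complex, was at 99.6, 147 and 84.6 units in GG clones, against 165 and 147 units in CC clones. E2F1, a transcription factor of S phase entry, was at 24.5, 35.2 and 22.4 units in GG clones, against 33.4 and 42.7 units in CC clones. The list followed single clones. Its medians were -0.05, 0.25 and -0.77 in GG1, GG2 and GG6, against 0.70 and -0.17 in CC1 and CC3. Leaving out GG6 gave a list median of -0.12, leaving out CC1 gave -0.03 and leaving out CC3 gave -0.86. The members of such a list move together within a clone, so 35 of 36 is not 35 separate observations.

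Histone cluster genes also had lower GG means, again with CC1 highest and GG6 lowest. As a group they supply histones for new chromatin during DNA replication, and most of their transcripts end in a stem loop in place of a poly(A) tail. Ribosome-depleted libraries such as these hold transcripts with and without that tail. Some genes of the clusters may also give transcripts with a tail, and transcript ends were not measured here. They were singled out after their values were seen, because HIST1H2BI and HIST1H2BD stood among the 10 genes above. Of 48 tested, 0 passed, 47 had the lower mean in GG clones, and the median log2 difference was -0.84. In 17 every GG clone lay below both CC clones, against 5.17% of all tested genes, and 10 had an unadjusted limma p under 0.05, against 1.17%. Both counts include HIST1H2BI and HIST1H2BD, which had been chosen by these same values. Copies of near-identical sequence, such as HIST2H3A and HIST2H3C with equal values in every library, share their reads, so these counts hold fewer separate measurements than genes.

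Summed over the cluster genes, the level was 3254, 4842 and 1494 units in GG1, GG2 and GG6, against 5743 and 4188 units in CC1 and CC3. The groups overlapped, since GG2 was above CC3, and GG6 was lowest. The GC clones had 3042, 4682 and 4336 units. Leaving out GG6 gave a median log2 difference of -0.39 over the 48 genes in place of -0.84. Under palmitic acid the sums were 2780, 4445 and 1062 units in GG clones, against 5243 and 2403 units in CC clones, and the median difference was -0.63. The cell cycle list shared its highest clone, CC1, and its lowest clone, GG6, with these genes. CC3 was placed otherwise. Its cell cycle median was -0.17, below GG1 at -0.05, while its histone median was 0.27, above GG1 at -0.13. What part the cell cycle list has in the histone result was not tested.

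H2B genes had the most members apart between genotypes. All 13 had the lower mean in GG clones, with a median of -1.08, and in 8 every GG clone lay below both CC clones, where 5.17% of all tested genes did so. The 8 include HIST1H2BI and HIST1H2BD, which had been chosen for lying apart. The H2B count is raised by that choice and is a description. The count was 4 of 13 for H2A genes, 3 of 8 for H3 genes, 2 of 10 for H4 genes and 0 of 4 for H1 genes. HIST1H2BC was at 117, 129 and 70.6 units in GG clones, against 245 and 167 units in CC clones, a log2 difference of -0.98 ± 0.34. HIST1H2BH, also counted among the 8, was at 0.069, 0 and 0.51 units in GG clones, against 1.90 and 2.55 units in CC clones. It rests on few reads and passed the filter of 1 unit only through the CC clones, where it is high. Of 5 histone genes outside the replication clusters, picked by hand, 0 lay apart between the genotypes, against 9.38% of all tested genes. A set of 5 is too small to tell 0 from that share. Their log2 differences were between -0.505 and 0.055, and levels are given here for 2 of them. H1F0, a linker histone of resting cells, was at 387, 417 and 813 units in GG clones, against 274 and 874 units in CC clones, and H3F3B, a gene of the replacement histone H3.3, at 196, 218 and 277 units in GG clones, against 238 and 224 units in CC clones.

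The promoters of 3 H2B genes that lay apart between the genotypes are shown because they had the smallest p among the H2B genes that averaged 5 units or more in the higher genotype. Each run is the 250 bases before the RefSeq start on GRCh38.p14, written 5′ to 3′ on the gene's strand, with the octamer ATTTGCAT in capitals. This octamer, bound by the POU factor Oct-1, is a known element of H2B promoters. HIST1H2BI lies at chr6:26272681-26272930 on the plus strand, HIST1H2BC at chr6:26123927-26124176 on the minus strand and HIST1H2BD at chr6:26157871-26158120 on the plus strand.
HIST1H2BI: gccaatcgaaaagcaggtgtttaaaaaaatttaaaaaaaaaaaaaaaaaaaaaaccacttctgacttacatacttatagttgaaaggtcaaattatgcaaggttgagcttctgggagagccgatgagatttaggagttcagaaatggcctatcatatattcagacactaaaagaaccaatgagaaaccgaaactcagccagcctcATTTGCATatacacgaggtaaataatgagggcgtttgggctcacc
HIST1H2BC: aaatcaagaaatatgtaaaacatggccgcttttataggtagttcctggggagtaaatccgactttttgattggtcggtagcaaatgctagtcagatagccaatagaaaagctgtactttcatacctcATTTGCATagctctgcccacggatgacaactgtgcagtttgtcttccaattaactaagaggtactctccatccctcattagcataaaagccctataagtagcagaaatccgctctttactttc
HIST1H2BD: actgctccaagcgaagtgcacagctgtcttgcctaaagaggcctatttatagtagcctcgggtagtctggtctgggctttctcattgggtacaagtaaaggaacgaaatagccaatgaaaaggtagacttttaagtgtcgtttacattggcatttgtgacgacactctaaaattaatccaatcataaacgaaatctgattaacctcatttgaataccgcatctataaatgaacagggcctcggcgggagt
The octamer, searched on both strands as ATTTGCAT and ATGCAAAT, was found in HIST1H2BI and HIST1H2BC and not in the HIST1H2BD window. It was present in 10 of the 13 H2B genes and 9 of 11 H2A genes with a promoter entry, 1 of 6 H3 genes, 0 of 4 H1 genes and 0 of 9 H4 genes. Among all 35116 promoters of the same length it was present in 573 (1.63%). The search took exact matches only, and HIST1H2BD has 2 promoter entries, of which 1 is shown. Whether the octamer has any part in the difference between genotypes was not tested.

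The genes with the largest differences within a genotype were chosen by the size of that difference and are given as levels only. RELN, a secreted matrix protein, was at 61.2, 2959 and 23.9 units in GG1, GG2 and GG6, against 209 and 52.6 units in CC1 and CC3. SPINK1, a trypsin inhibitor, was at 1.45, 332 and 11.9 units in GG clones, against 9.87 and 16.0 units in CC clones. ALDH1A1, a retinal dehydrogenase, was at 155, 144 and 0.94 units in GG clones, against 1.33 and 0.48 units in CC clones, and at 0.76, 185 and 314 units in GC clones. Each genotype thus had at least 1 clone with under 2 units of ALDH1A1. Between the CC clones, GSTA1, a glutathione transferase, was at 527 units in CC1 and 12.8 units in CC3, with GG clones at 178, 3.80 and 45.7 units. AKR1C1 was at 140 units in CC1 and 1.91 units in CC3, with GG clones at 7.33, 116 and 3.91 units. In the other direction IGFBP1, a hepatic binding protein of insulin-like growth factors, was at 7.27 units in CC1 and 283 units in CC3, with GG clones at 15.2, 83.7 and 360 units. C5AR1, the receptor of complement fragment C5a, was at 0.51 units in CC1 and 27.2 units in CC3, with GG clones at 1.31, 3.01 and 50.6 units. For IGFBP1, C5AR1 and GREM1, an antagonist of bone morphogenetic proteins at 0 and 24.5 units in CC1 and CC3, GG6 and CC3 were the high pair.

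GG2 stood far above the other 4 clones for some liver and epithelial genes, picked here after their values were seen, and not for others of the same kind. Of 7 HepG2 markers, GG2 was highest of the 5 clones for ALB, TTR and AFP and lowest for HNF4A, while SERPINA1 and APOA1 were highest in CC1 and APOB in CC3. ALB, serum albumin, was at 174, 807 and 213 units in GG1, GG2 and GG6, against 151 and 179 units in CC1 and CC3. TTR, the thyroxine carrier transthyretin, was at 3.46, 145 and 5.86 units in GG clones, against 16.7 and 5.35 units in CC clones. KRT19, a keratin of bile duct cells, was at 0.83, 45.5 and 0.36 units in GG clones, against 0.70 and 2.79 units in CC clones. CDH1, the epithelial cadherin, was at 2.35, 30.7 and 1.59 units in GG clones, against 2.02 and 1.91 units in CC clones.

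By chromosome, the genotypes did not differ by more than 0.1 log2 units from the median of all genes on any of chromosomes 1 to 22 or X. The largest shifts were on chromosome 20, at -0.10 over 352 genes, and chromosome 21, at -0.09 over 119 genes. Both came with low values in GG2 alone among the 5 clones. Relative to the mean of the 5 clones, the median gene of GG2 was at -0.26 on chromosome 13, -0.23 on chromosome 21, -0.19 on chromosome 10, -0.18 on chromosome 20 and -0.13 on chromosome 6. No other untreated clone was below -0.10 on any chromosome. The palmitic acid library of GG2 gave -0.24, -0.27, -0.20, -0.16 and -0.12 on the same chromosomes in the same order.

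Within chromosomes 10 and 20 the shift of GG2 covered some stretches and not others. In windows of 10 Mb with at least 20 tested genes, GG2 was at -0.37, -0.37 and -0.41 between positions 1 and 30000000 of chromosome 10. It lay between -0.01 and 0.10 in the 5 windows from 40000001 to 100000000 that held enough genes, and at -0.32, -0.42 and -0.21 from 100000001 to 130000000. On chromosome 20 it was at 0.03, 0.34 and 0.35 between positions 1 and 30000000, and at -0.29, -0.27, -0.20 and -0.30 from 30000001 to 70000000. All 5 windows of chromosome 13 and both windows of chromosome 21 were below -0.1 in GG2, as were 9 of 12 windows of chromosome 6. DNA copy number was not measured, and its part in these values was not tested.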

How the data were processed

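RNA was sequenced from 16 HepG2 libraries, of which 8 were untreated. The authors deposited 1 table of 16558 genes holding signal values, which are CPM of scaled library sizes. Build hg38, Bowtie2, RSEM 1.3.0, edgeR and Trimmomatic 0.38 are listed, without roles, per the submitters' processing notes. The labels' protocols give TRIzol extraction, ribosomal RNA depletion and a directional kit, and the strand setting used in counting is not given in the sources used here, so reads of overlapping or antisense genes may be shared. Dividing each deposited column by its smallest value above 0 gave whole reads for 100% of values at a tolerance of 0.01, and edgeR's trimmed-mean scaling of those reads returned the deposited values. Those reads are rounded estimates where RSEM was used, so near-identical genes may share them.

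From these values, log2(value + 0.5) was tested with limma 3.58.1 (trend) in R 4.3.3 over 8 untreated libraries, 1 per clone, with 5 residual degrees of freedom, on genes averaging 1 unit or more over the 5 GG and CC libraries. A fold on this scale understates the change of low genes. P-values were adjusted by Benjamini-Hochberg at 0.05, two-sided. edgeR 4.0.16 and DESeq2 1.42.0 on the recovered reads, other pseudocounts, filters and scalings, other sets of libraries and leaving out each clone were alternatives. The test was tried on simulated counts with known changes, which had the same spread setting for every gene and no differences between clones. That trial checks the code and does not show how the test performs on these clones. With 3 against 2 clones, an exact two-sided permutation test of a mean difference cannot go below 0.1, so none is given. Genes were placed by symbol in GENCODE v29, which located 92.2% of them, and promoters come from RefSeq.

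Named genes missed the test and are the 10 smallest unadjusted p in each direction among genes without overlap, where the higher genotype averaged 5 units or more. Genes with placeholder, clone-derived, antisense, open-reading-frame or small RNA names were left out of these. On and off genes had at least 20 reads in every library of 1 genotype and at most 3 in the other. Up to 3 members per list with the smallest p, the PNPLA family and the 5 widest differences within a genotype were also eligible. Lists were written by hand, 768 symbols in 34 lists, of which 674 are in the table. Members and lists were chosen with earlier results of these data known. One member of a list is not reported here.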

Additional observations from a re-analysis of the deposited data

How the results depend on the processing

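The count of 0 genes between GG and CC clones held with only the 5 libraries, all 16 libraries, pseudocounts of 0.1 and 1, no filter, a filter of 5 units, both other scalings and edgeR. It was 1 with DESeq2 (HIST1H2BI) and ranged from 0 to 1 on leaving out a clone, the 1 being PPAN-P2RY11 without CC3. That read-through gene was at 6.43, 7.13 and 6.73 units in GG clones, against 0 and 5.35 units in CC1 and CC3, with adjusted limma p 0.0189 without CC3. No paired analysis was possible because GG and CC clones share only the number 1 and are different clones. A fit of all 16 libraries with the clone as a replicate block gave 0 genes. Leaving out a clone gave between 2916 and 5223 genes without overlap (1224 with all 5), since fewer clones overlap less often by construction. The share of the sum of squares between genotypes ranged from 21.1% to 25.8% on leaving out a clone. With a filter of 5 units, 1 chromosome shifted by over 0.1, and 0 to 4 did on leaving out a clone. Signs turned on leaving out a clone for PNPLA3 (-1.39 to 1.08), PNPLA1 (-1.03 to 0.11), PNPLA2 (-0.19 to 0.46), PNPLA4 (-0.16 to 0.0092), PNPLA8 (-0.0074 to 0.42), CES1 (-2.52 to 0.0565) and TM7SF2 (-1.37 to 0.0002). Of the 34 list medians, 27 also changed sign, with the widest ranges for NF-kB and inflammatory genes (-0.62 to 0.86), cholesterol (-0.59 to 0.70), macrophage markers (-0.81 to 0.30), endothelial markers (-0.04 to 1.25), ATF4 and CHOP genes (-0.57 to 0.43) and ER chaperones (-0.34 to 0.34). For PNPLA3, edgeR gave -0.63 and DESeq2 -0.62, where limma gave -0.15. limma compares means of log2 values, while edgeR and DESeq2 fit mean read counts. Mean PNPLA3 units were 4.93 in GG and 7.64 in CC clones, with CC1 at 13.3 and CC3 at 1.99. Any other part in this gap was not tested. Genes near 1 unit rest on few reads per library, and with 2 CC clones the spread within that genotype rests on 1 difference. How much of each interval comes from depth and how much from the clones was not tested.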
